A study of Mus musculus with 29 samples.

Results

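Gene expression in the hypothalamus was compared between older and younger adult mice: 3 libraries labelled 18 months and 3 labelled 6 months, chosen by their age label out of 29 libraries in the series. All 6 came from C57BL/6 wild-type (WT) males, singly housed in 12 h of light and 12 h of dark, with tissue taken around 6 h after lights on and RNA sequenced in read pairs. The 18-month libraries are named by their title numbers, replicates 14, 15 and 16, and the 6-month libraries are replicates 32, 33 and 34. Each was read as a separate mouse from its title, and since no label tells more about their origin, the p-values reflect only how these libraries vary, which may be technical. The 18-month titles carry the letters tha and the 6-month titles do not, although the tissue label is hypothalamus for all 6. Any difference in handling that followed the titles cannot be told apart from age.

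The hypothalamus holds neurons that secrete peptides controlling water balance, feeding, growth, reproduction and sleep, and it borders the third ventricle, whose choroid plexus and ependyma make and move cerebrospinal fluid. Microglia, the resident macrophages of the brain, survey the tissue and take up debris. In ageing and in disease models a subset of them turns on genes such as Itgax, Cst7 and Clec7a, astrocytes turn on Serpina3n and complement C4b, and cells exposed to interferon turn on a shared set of antiviral genes through STAT and IRF transcription factors.

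Across 16916 genes tested, 3 differed between 18 and 6 months at an adjusted p below 0.05 (0.0177% of genes; edgeR's quasi-likelihood test, Benjamini-Hochberg adjusted), and all 3 were higher at 18 months: Serpina3n, Itgax and Cst7. No gene was called lower by edgeR. At an unadjusted p below 0.05 there were 1315 genes (7.77%), of which 624 were higher (3.69%) and 691 lower (4.08%) at 18 months, and DESeq2 called 11 higher (0.0651%) and 7 lower (0.0414%). The calls rest on the spread estimated over 28 libraries of all ages: edgeR called 0 genes in a fit of the 18-month and 6-month libraries alone, with 1039 at an unadjusted p below 0.05, and 0 without 6-month replicate 34. The median log2 fold change of all genes was 0.00188.

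The promoter stretches shown are from RefSeq (GRCm38.p6), read on the strand of the gene. They are printed for the 3 called genes, and for members of the interferon list because those genes moved together, as described further on. Those of the 3 called genes are the 250 bases ending 1 base before the annotated start. Those of the interferon list are cut from such windows, and most end further upstream. In Itgax and Cst7, capitals mark GGAAGT on either strand, the core bound by PU.1 and other ETS factors, PU.1 being the factor that shapes macrophages and microglia. It was in 19.7% of 32851 RefSeq windows of 250 bases before a start, and in the windows of 3150 of 12732 tested genes that had an entry (24.7%). The Serpina3n window was searched on both strands for TTCNNNGAA, the spaced palindrome bound by STAT factors (7.02% of windows), and these letters are not in it.
Serpina3n, chr12:104406458-104406707, plus strand: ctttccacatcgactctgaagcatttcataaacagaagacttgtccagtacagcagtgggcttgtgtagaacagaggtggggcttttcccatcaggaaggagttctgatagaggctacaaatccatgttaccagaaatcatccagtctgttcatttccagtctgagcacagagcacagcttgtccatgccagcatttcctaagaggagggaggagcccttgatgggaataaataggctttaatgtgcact
Itgax, chr7:128129300-128129549, plus strand: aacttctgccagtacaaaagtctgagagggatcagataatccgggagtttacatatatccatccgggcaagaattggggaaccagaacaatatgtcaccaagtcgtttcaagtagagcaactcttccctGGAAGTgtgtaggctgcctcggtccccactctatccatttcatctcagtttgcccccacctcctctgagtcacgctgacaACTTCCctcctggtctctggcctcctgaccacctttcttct
Cst7, chr2:150570165-150570414, plus strand: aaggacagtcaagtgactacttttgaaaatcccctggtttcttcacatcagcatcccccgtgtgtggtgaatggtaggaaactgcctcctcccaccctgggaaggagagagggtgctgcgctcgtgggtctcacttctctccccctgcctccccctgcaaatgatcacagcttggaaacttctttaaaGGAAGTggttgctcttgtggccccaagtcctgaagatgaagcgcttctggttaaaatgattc
A match is a description of the letters and not evidence of binding.

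In the interferon list, 24 of 33 tested genes had a RefSeq window, and 13 of the 24 held, on either strand, the repeat of the interferon-stimulated response element, searched as GAAA, any 2 bases and GAAA again. The same letters were in 2.98% of all windows and in the windows of 389 of 12732 tested genes that had an entry (3.06%). MHC class I genes held them in 3 of 14 windows, among them B2m. The 8 stretches below show the repeat in capitals, with 30 bases on each side of its first match where the window allows. A later match that begins within this reach is shown to its end. The first match began 34 (Igtp) to 188 (Ifit3b) bases before the annotated start. Those of Ifit3 and Ifit3b, which are neighbouring genes, are identical in letters. These letters lie before the annotated starts and do not tell how alike the transcripts are. Whether reads that fit both genes affected their counts was not tested.
Ifit1, chr19:34640755-34640824, plus strand: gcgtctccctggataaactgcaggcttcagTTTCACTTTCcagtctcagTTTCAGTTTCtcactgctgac
Ifit3, chr19:34583343-34583416, plus strand: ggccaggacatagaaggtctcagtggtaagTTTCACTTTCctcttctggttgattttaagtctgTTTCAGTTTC
Ifit3b, chr19:34607739-34607812, plus strand: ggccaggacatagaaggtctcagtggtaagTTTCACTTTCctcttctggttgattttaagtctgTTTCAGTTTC
Isg15, chr4:156200857-156200926, minus strand: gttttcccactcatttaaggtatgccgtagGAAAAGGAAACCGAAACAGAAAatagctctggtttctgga
Bst2, chr8:71537563-71537632, minus strand: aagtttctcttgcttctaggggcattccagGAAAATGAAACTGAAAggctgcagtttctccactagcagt
Rsad2, chr12:26456533-26456602, minus strand: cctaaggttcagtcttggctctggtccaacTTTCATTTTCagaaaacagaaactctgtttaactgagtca
Igtp, chr11:58199492-58199555, plus strand: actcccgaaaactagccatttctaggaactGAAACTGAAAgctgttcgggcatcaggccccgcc
Gbp2, chr3:142620574-142620643, plus strand: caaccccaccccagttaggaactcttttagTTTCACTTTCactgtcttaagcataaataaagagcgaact

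The 6 libraries held 25183002 to 39783779 gene counts each, so that 3 counts made 0.0754 to 0.119 CPM of the unscaled library. CPM are counts relative to the gene counts of the library, and the values given here use library sizes scaled by TMM, with factors of 0.9916 to 1.079. Markers of sex matched the male label in each library. Libraries 14 at 18 months and 34 at 6 months stood apart: they lay at opposite ends of the first principal component (-35.2 and 34.4, against -4.97 to 6.09 for the other 4), which held 35.8% of the variance. Library 14 carried 4965 CPM summed over 16 choroid plexus markers, against 1717 and 1686 in the other 18-month libraries and 1735, 353 and 380 in the 6-month libraries, and 12.4% of its read pairs fell in no gene, against 8.01 to 9.87% in the other 5. Library 34 carried markers of midbrain and hindbrain, with the serotonin genes Tph2 at 24.7 CPM and Slc6a4 at 13.2 CPM, against at most 1.43 and 0.425 CPM in the other 5, and its 17 meningeal markers summed to 1382 CPM, against 494 to 685 CPM elsewhere. Library 32 at 6 months held the most of 16 striatal markers, at 1147 CPM against 553 to 638 CPM in the other 5. Hypothalamic transcription factors were detected in all 6 libraries, with no member at 0 in any of them. The 29 genes summed to 262 to 293 CPM at 18 months and 210 to 323 CPM at 6 months. The 20 thalamic markers summed to 2787 to 3752 CPM at 18 months and 2844 to 4077 CPM at 6 months. The results that follow are given with and without libraries 14 and 34 where it matters.

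**Figure D1:**
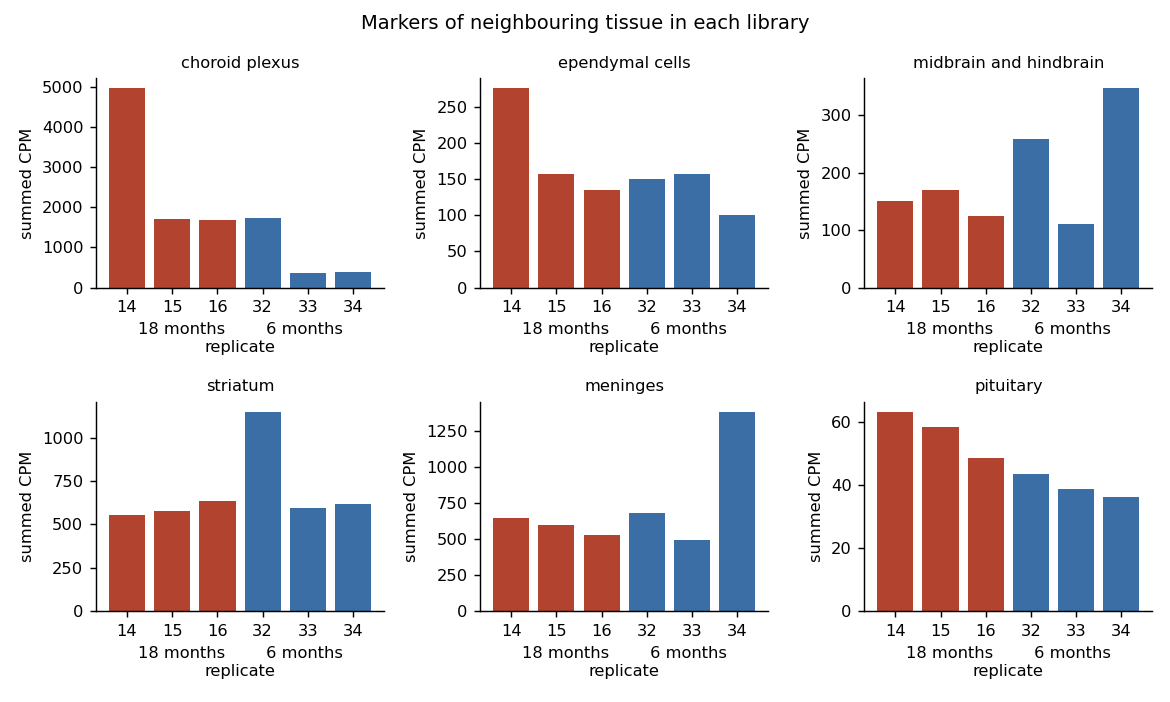
Summed CPM of marker lists for tissue that borders the hypothalamus, 1 bar per library, with the 18-month libraries (replicates 14 to 16) left and the 6-month libraries (32 to 34) right. Choroid plexus and ependymal markers peak in library 14, and midbrain and meningeal markers in library 34, while pituitary markers lie at 48.6 to 63.2 CPM at 18 months and 36.1 to 43.4 CPM at 6 months.

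Serpina3n (chr12:104406729-104414329, plus strand; GENCODE M21, GRCm38), a secreted inhibitor of serine proteases that reactive astrocytes make, rose at 18 months. It had 61.7, 58.1 and 54.4 CPM in the 18-month libraries, against 33, 30.1 and 27.7 CPM in the 6-month libraries. Every 18-month value was above every 6-month value, with little spread inside either age. The means were 58.1 ± 3.62 CPM at 18 months and 30.3 ± 2.65 CPM at 6 months (SD, n = 3 each), a log2 fold change of 0.94 ± 0.13 (SE, edgeR adjusted p = 0.0045). At 12 months it averaged 49.2 ± 5.49 CPM, between the ends. Without library 34 its fold change was 0.88 and its adjusted p 0.0536, and no single other library took away the call.

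Itgax (chr7:128129547-128150657, plus strand), which encodes the integrin CD11c of dendritic cells and of activated microglia, also rose, on low counts. Its 18-month libraries had 1.34, 1.82 and 2.54 CPM (37, 47 and 89 counts), against 0.350, 0.395 and 0.458 CPM at 6 months (14, 12 and 14 counts). The ages did not overlap, and the log2 fold change was 2.25 ± 0.34 (edgeR adjusted p = 0.00531). At 12 months the mean was 0.662 ± 0.346 CPM, nearer to the 6-month than to the 18-month mean of 1.90 ± 0.604 CPM. The call was lost without library 16, 32, 33 or 34, at adjusted p of 0.115, 0.127, 0.0520 and 0.0536 (edgeR), with fold changes of 1.98 to 2.45 on the log2 scale over the single libraries left out.

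Cst7 (chr2:150570415-150578944, plus strand), which encodes cystatin F, an inhibitor of lysosomal cathepsins, rose by the largest factor of the 3. It had 1.09, 0.776 and 1.43 CPM at 18 months (30, 20 and 50 counts), against 0.175, 0.197 and 0.164 CPM at 6 months (7, 6 and 5 counts), with no overlap. The log2 fold change was 2.60 ± 0.43 (edgeR adjusted p = 0.0141), on the fewest counts of the 3 genes. Its 12-month libraries averaged 0.492 ± 0.257 CPM. Without library 16, 32, 33 or 34 the adjusted p was 0.154, 0.165, 0.0723 and 0.0819 (edgeR).

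**Figure D2:**
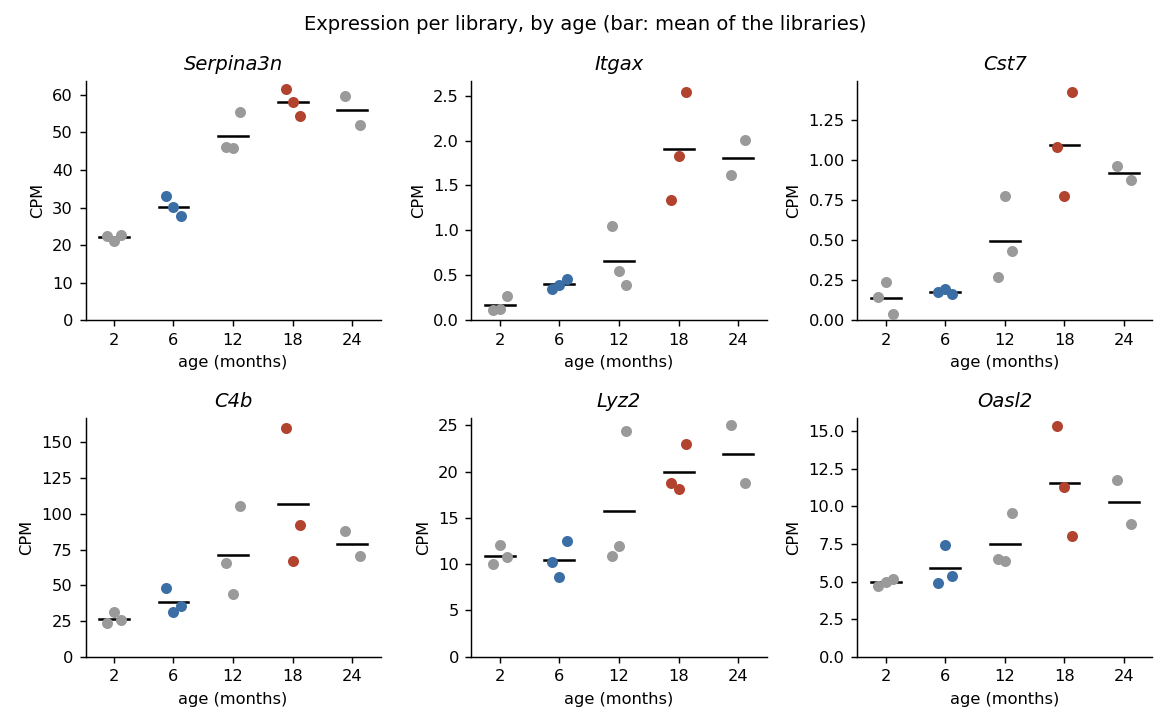
CPM of 6 genes in every library of 2, 6, 12, 18 and 24 months, with a bar at the mean of each age and the 18-month (red) and 6-month (blue) libraries coloured. In each panel the 18-month libraries lie above the 6-month libraries, and the 12-month libraries lie between them or overlap with them, up to 24.3 CPM for Lyz2, above the 18-month libraries.

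The call set was small and moved with the method, so genes that DESeq2 called or that came next by p are given as values. Clec7a, the receptor dectin-1 that marks the same microglial state, had 1.45, 1.90 and 2.37 CPM at 18 months, against 0.625, 0.527 and 0.458 CPM at 6 months (1.82 ± 0.38 on the log2 scale, edgeR adjusted p = 0.196, DESeq2 0.0111). C4b, complement component 4, had 160, 67.3 and 91.9 CPM at 18 months, against 48.1, 31.5 and 35.6 CPM at 6 months (1.47 ± 0.31, edgeR adjusted p = 0.219, DESeq2 0.0111). For each of them the lowest 18-month library was above the highest 6-month library. Library 14, which held the most choroid plexus markers, also held the most C4b, and without it the fold change of C4b was 1.05 on the log2 scale (edgeR adjusted p = 0.859).

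Lyz2, lysozyme of macrophages and microglia, had 18.8, 18.1 and 22.9 CPM at 18 months, against 10.3, 8.59 and 12.5 CPM at 6 months (0.93 ± 0.22, edgeR adjusted p = 0.275, DESeq2 0.0436). Lag3, a receptor of the CD4 family that binds MHC class II, had 9.49, 9.58 and 10.1 CPM at 18 months, against 7.43, 5.397 and 5.95 CPM at 6 months (0.63 ± 0.15, edgeR adjusted p = 0.275, DESeq2 0.0275). Neither overlapped between the ages. Fmo1, a flavin monooxygenase, averaged 12.8 ± 1.87 CPM at 18 months and 8.57 ± 1.01 CPM at 6 months (SD, n = 3 each; 0.58 ± 0.14, edgeR adjusted p = 0.275, DESeq2 0.0449). Stat3, the transcription factor through which astrocytes answer interleukin-6 family cytokines, had 95.4, 82.4 and 83.9 CPM at 18 months, against 70.6, 70.4 and 71.8 CPM at 6 months (0.30 ± 0.07, edgeR adjusted p = 0.275, DESeq2 0.0449). The protocadherins Pcdhga1 (0.88 ± 0.17, DESeq2 adjusted p = 0.00179, edgeR 0.14) and Pcdhb9 (0.47 ± 0.11, DESeq2 0.0449, edgeR 0.275) were higher at 18 months in all 3 libraries. However, they belong to a cluster of related and partly overlapping genes, so their counts are uncertain.

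Among genes with lower values at 18 months, no edgeR call was made, and 7 genes of small p with no overlap and a mean of at least 5 CPM are described here. Stac2, which binds voltage-gated calcium channels, had 32.5, 30.4 and 32.1 CPM at 18 months, against 62.2, 38.2 and 60.5 CPM at 6 months (-0.76 ± 0.17, edgeR adjusted p = 0.275, DESeq2 0.0248). Ptms, parathymosin, had 344, 453 and 370 CPM at 18 months, against 586, 543 and 532 CPM at 6 months (-0.51 ± 0.11, edgeR adjusted p = 0.219, DESeq2 0.0111). Ptms lies beside Lag3 on chromosome 6 (124913681 to 124920103, and 124904361 to 124911705), and the pair had opposite signs. Diras1, a small GTPase of the brain, had 144, 183 and 161 CPM at 18 months, against 207, 206 and 234 CPM at 6 months (-0.41 ± 0.08, edgeR adjusted p = 0.196, DESeq2 0.00973).

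The creatine transporter Slc6a8 (-0.33 ± 0.08) and the zinc finger factor Zfp521 (-0.33 ± 0.08) had DESeq2 adjusted p of 0.045 and 0.0449 and edgeR adjusted p of 0.275. Iglon5, a neuronal adhesion molecule (-0.50 ± 0.12), and the ubiquitin ligase gene Rnf26 (-0.37 ± 0.09) were not called by DESeq2 (adjusted p = 0.0502 and 0.0557). In these 7 genes each 18-month library was below each 6-month library. Another gene that DESeq2 called lower, Tph2, owed its value to library 34: it had 0.326, 0.582 and 0.657 CPM at 18 months, against 1.43, 0.559 and 24.7 CPM at 6 months, so the ages overlapped.

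The gene lists show which groups of genes these values belong to. For reference, 50.5% of all tested genes had a positive fold change, 6.41% had every 18-month library above every 6-month library, and 6% had every 18-month library below. As the tissue is bulk, fewer cells of a type and less RNA per cell cannot be told apart in any of the lists.

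Genes of the disease-associated microglial state held 2 of the 3 calls. Of 24 tested members 18 had a positive fold change, 10 were higher and 1 lower at an unadjusted p below 0.05, and 8 were higher with no overlap (33.3%), with a median log2 fold change of 0.25. Besides Itgax, Cst7, Clec7a and Lyz2, these were Lilrb4a, Lgals3, Tyrobp and B2m. Lgals3, galectin-3, had 3.44, 2.64 and 3.23 CPM at 18 months, against 1.83, 1.25 and 1.28 CPM at 6 months (1.09 ± 0.28, edgeR adjusted p = 0.289). Tyrobp, the signalling partner of TREM2, had 16.3, 17.7 and 17.4 CPM at 18 months, against 14.8, 11.7 and 12.3 CPM at 6 months (0.40 ± 0.13, edgeR adjusted p = 0.447). Neither gene overlapped between the ages.

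Not all of the state's genes followed. Trem2 itself had 17.6, 21.3 and 22.5 CPM at 18 months, against 19.5, 15.5 and 15.4 CPM at 6 months (0.28 ± 0.13, edgeR adjusted p = 0.612), and library 32 lay inside the 18-month range. Apoe, which astrocytes also make in large amounts, had 2701, 2890 and 2712 CPM at 18 months, against 2981, 2320 and 2366 CPM at 6 months (0.12 ± 0.16, edgeR adjusted p = 0.923). Spp1, osteopontin, was lowest at 18 months, at 9.02, 9.23 and 10.1 CPM, against 15.7, 10.04 and 65.0 CPM at 6 months, but the ages overlapped and library 34 set the mean.

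Of 18 markers of microglia in their resting state 11 had a positive fold change, 3 were higher and none lower at an unadjusted p below 0.05, 2 were higher with no overlap (11.1%), and the median was 0.02. The 3 were the C1q genes described with complement, and none was called by edgeR or DESeq2. P2ry12, a purine receptor that senses injury, had 22, 25.4 and 23.2 CPM at 18 months, against 30.2, 24.3 and 26 CPM at 6 months (-0.19 ± 0.16, edgeR adjusted p = 0.846). Tmem119 had 21.8, 26 and 23 CPM at 18 months, against 24.1, 20.1 and 21.2 CPM at 6 months (0.11 ± 0.14, edgeR adjusted p = 0.911). The list summed to 1989 to 2124 CPM at 18 months and 2019 to 2150 CPM at 6 months, which overlap. Markers of border macrophages, which lie in the meninges and vessels, summed to 21.1 to 23.8 CPM over 10 genes at 18 months and 21.2 to 31.2 CPM at 6 months, and T cell markers to 1.54 to 2.57 CPM and 0.753 to 3.95 CPM over 10 genes. Cd8a, the co-receptor of cytotoxic T cells, had 0.761, 0.233 and 0.171 CPM at 18 months (21, 6 and 6 counts), against 0.10001, 0.165 and 0.0327 CPM at 6 months (4, 5 and 1 counts; 1.90 ± 0.64, edgeR adjusted p = 0.494), with no overlap and the highest value in library 14. It was called at 24 against 2 months (2.32 ± 0.75, edgeR adjusted p = 0.0486). Its part in the values of the interferon and MHC class I genes was not tested.

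Complement genes, which tag debris and synapses for uptake, had 7 of 20 members higher and none lower at an unadjusted p below 0.05, with a median of 0.31 and 6 members higher with no overlap (30%). None was called by edgeR, and DESeq2 called C4b. The C1q subunits are made by microglia. C1qa had 75.2, 76.3 and 80.1 CPM at 18 months, against 75.7, 54.2 and 57.6 CPM at 6 months (0.30 ± 0.13, edgeR adjusted p = 0.594), and library 32 lay inside the 18-month range. C1qc had 61.5, 61.2 and 61.4 CPM at 18 months, against 57.4, 45.1 and 46.1 CPM at 6 months (0.31 ± 0.10, edgeR adjusted p = 0.457). C1qb had 60.1, 57.9 and 57.9 CPM at 18 months, against 54.2, 42.8 and 44.4 CPM at 6 months (0.31 ± 0.10, edgeR adjusted p = 0.443). In C1qb and C1qc the ages did not overlap, and library 32 stood nearest to the 18-month libraries. C3, the central component, had 18.9, 8.38 and 7.45 CPM at 18 months, against 5.80, 6.61 and 4.06 CPM at 6 months (1.07 ± 0.32, edgeR adjusted p = 0.413), without overlap and highest in library 14.

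All 33 tested members of the interferon response list had a positive fold change, 18 were higher and none lower at an unadjusted p below 0.05, and 21 were higher with no overlap (63.6%), with a median log2 fold change of 0.57. No member was called by edgeR or by DESeq2. Summed CPM of the list was 394, 325 and 287 at 18 months, against 224, 251 and 241 at 6 months, and library 14 was the highest. Without library 14 all 33 members had a positive fold change, 10 were higher at an unadjusted p below 0.05 and the median was 0.43. Without libraries 14 and 34, a setting chosen after seeing the data, 33 were positive, 7 were higher at that p and the median was 0.38.

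The effectors came first by p. Oasl2, an oligoadenylate synthetase-like antiviral protein, had 15.4, 11.3 and 8.05 CPM at 18 months, against 4.93, 7.40 and 5.37 CPM at 6 months (0.97 ± 0.23, edgeR adjusted p = 0.275, DESeq2 0.0502). Ifit1, an RNA-binding inhibitor of viral translation, had 7.68, 7.21 and 5.82 CPM at 18 months, against 3.23, 4.61 and 4.25 CPM at 6 months (0.78 ± 0.27, edgeR adjusted p = 0.494). Ifit3, its partner, had 22.1, 21.8 and 20.6 CPM at 18 months, against 12.1, 14.4 and 13.1 CPM at 6 months (0.70 ± 0.27, edgeR adjusted p = 0.564). The promoter repeats of Ifit1 and Ifit3 are printed above, the Oasl2 window does not hold these letters, and in each of the 3 genes the ages did not overlap. Usp18, which removes ISG15 from proteins and damps the response, had 3.15, 2.91 and 3.00 CPM at 18 months, against 1.4, 1.74 and 1.83 CPM at 6 months (0.87 ± 0.23, edgeR adjusted p = 0.333).

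Irf7, a regulator of the response, had 4.02, 4.97 and 3.77 CPM at 18 months, against 2.20, 2.93 and 2.78 CPM at 6 months (0.69 ± 0.19, edgeR adjusted p = 0.363). The ages did not overlap. Isg15, the ubiquitin-like modifier, had 2.79, 3.10 and 2.08 CPM at 18 months, against 1.65, 1.94 and 1.86 CPM at 6 months (0.54 ± 0.25, edgeR adjusted p = 0.612), and Bst2, tetherin, had 8.95, 7.99 and 4.88 CPM at 18 months, against 4.53, 3.98 and 3.93 CPM at 6 months (0.80 ± 0.25, edgeR adjusted p = 0.436).

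**Figure D3:**
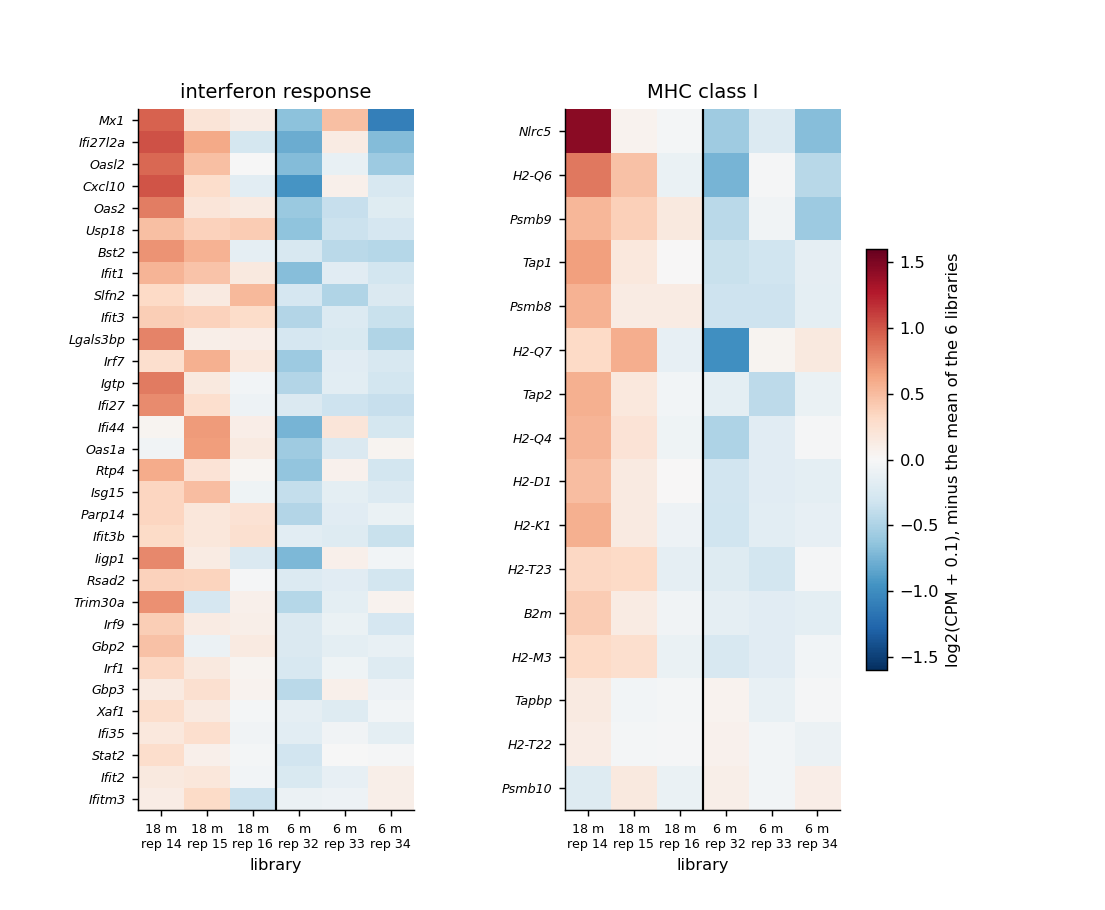
Log2(CPM + 0.1) of tested members of the interferon response (32 drawn) and MHC class I (16) lists in the 6 libraries, minus the mean of that gene over the 6, with 18-month libraries left of the line and 6-month libraries right. Interferon members are mostly above their mean at 18 months and below it at 6 months, most strongly in library 14 (summed 394 CPM) and least in library 16 (287 CPM).

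Genes of MHC class I antigen presentation, many of which interferon induces, summed to 556, 467 and 412 CPM at 18 months, against 379, 379 and 397 CPM at 6 months, and library 14 was again the highest. Of 16 tested members 15 had a positive fold change, 12 were higher and none lower at an unadjusted p below 0.05, and 8 were higher with no overlap (50%), with a median of 0.46. None was called by edgeR or DESeq2. H2-D1, a heavy chain, had 125, 98.4 and 89.1 CPM at 18 months, against 71.7, 78.5 and 80.0 CPM at 6 months (0.44 ± 0.13, edgeR adjusted p = 0.418), and B2m, the shared light chain, had 137, 113 and 99.0 CPM at 18 months, against 93.5, 90.8 and 92.4 CPM at 6 months (0.34 ± 0.13, edgeR adjusted p = 0.564). Counts of H2 genes are uncertain, since the heavy chains are alike in sequence.

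Peptide processing was included. Psmb8, a subunit of the immunoproteasome, had 8.33, 6.21 and 6.17 CPM at 18 months, against 4.48, 4.44 and 5.04 CPM at 6 months (0.57 ± 0.17, edgeR adjusted p = 0.418). Tap1, which forms the peptide transporter with Tap2, had 10.3, 7.33 and 6.57 CPM at 18 months, against 5.10, 5.20 and 5.89 CPM at 6 months (0.58 ± 0.19, edgeR adjusted p = 0.469). Nlrc5, the transcriptional activator of the class I genes, had 5.36, 1.98 and 1.86 CPM at 18 months, against 1.25, 1.61 and 1.15 CPM at 6 months (1.19 ± 0.36, edgeR adjusted p = 0.418), with library 14 far above the rest. Without library 14 the list had 13 positive members, 4 were higher at an unadjusted p below 0.05, and its median was 0.29. The part of the choroid plexus and of library quality in the values of library 14 was not tested.

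MHC class II genes, carried by professional antigen-presenting cells, overlapped between the ages in 6 of 7 tested members. Cd74, the invariant chain, had 16.1, 6.17 and 7.02 CPM at 18 months, against 5.4, 4.11 and 7.59 CPM at 6 months (0.78 ± 0.39, edgeR adjusted p = 0.662).

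Reactive astrocyte genes had 17 of 22 members with a positive fold change, 1 call (Serpina3n), 5 higher and none lower at an unadjusted p below 0.05, and a median of 0.25. Ggta1, a galactosyltransferase of the neuroinflammatory astrocyte pattern, had 11.05, 7.87 and 8.74 CPM at 18 months, against 6.05, 5.53 and 5.37 CPM at 6 months (0.71 ± 0.18, edgeR adjusted p = 0.275). Timp1, an inhibitor of metalloproteinases, had 1.195, 0.659 and 0.628 CPM at 18 months, against 0.225, 0.461 and 0.425 CPM at 6 months (1.17 ± 0.40, edgeR adjusted p = 0.494). Gfap, the intermediate filament commonly used to mark reactive astrocytes, had 438, 293 and 283 CPM at 18 months, against 383, 202 and 281 CPM at 6 months (0.23 ± 0.35, edgeR adjusted p = 0.925), and the ages overlapped. Without library 14 its sign turned, at -0.00328 on the log2 scale.

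Homeostatic astrocyte genes leaned the other way, with 5 of 18 members positive and a median of -0.12. Gja1, the gap junction protein connexin 43, had 236, 259 and 230 CPM at 18 months, against 302, 279 and 302 CPM at 6 months (-0.28 ± 0.07, edgeR adjusted p = 0.313), without overlap.

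**Figure D4:**
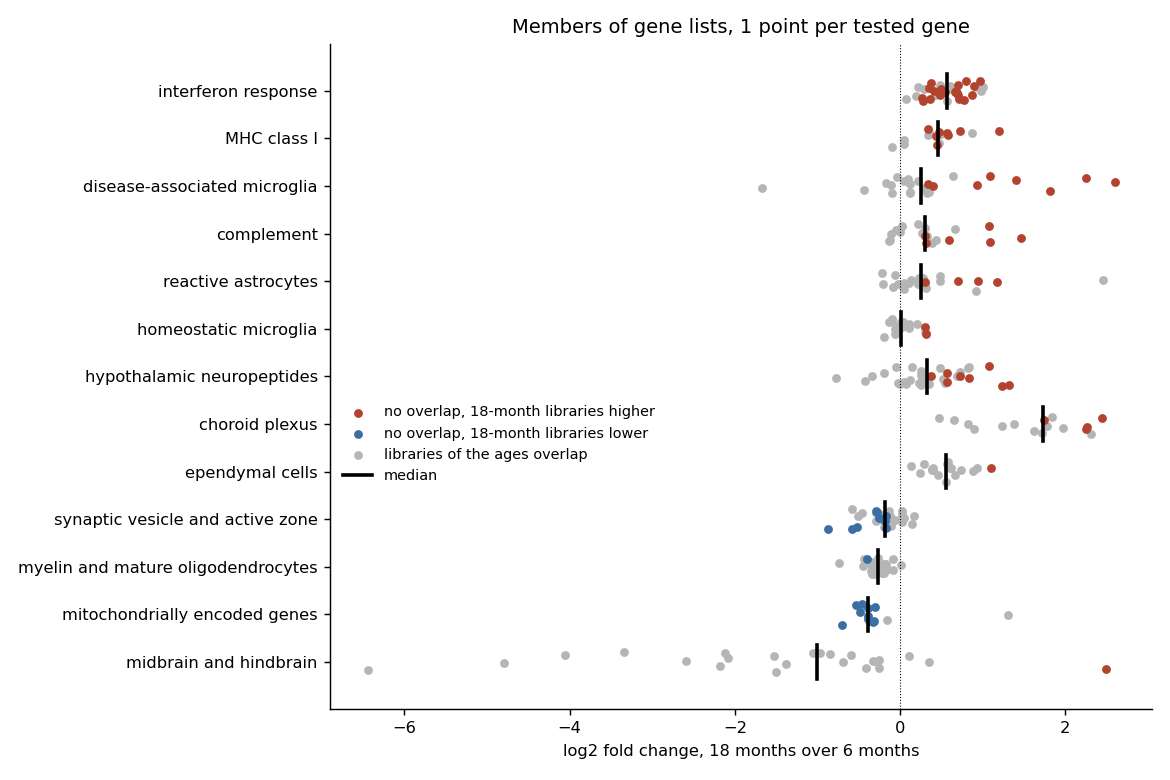
Log2 fold change, 18 months over 6 months, of each tested member of 13 gene lists (1 point per gene), with the list's median as a black bar. Red and blue points are genes whose libraries did not overlap between the ages, and the medians run from 1.73 for choroid plexus to -1.01 for midbrain and hindbrain.

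Transcripts of the mitochondrial genome, which encode subunits of the respiratory chain, were lower at 18 months in nearly every member. Of 13 tested members 12 had a negative fold change, 9 were lower and none higher at an unadjusted p below 0.05, and 11 were lower with no overlap (84.6%), with a median of -0.38. None was called by edgeR or DESeq2. ND2, a subunit of complex I, had 3123, 3462 and 3392 CPM at 18 months, against 4586, 4646 and 5211 CPM at 6 months (-0.53 ± 0.13, edgeR adjusted p = 0.275). CYTB, of complex III, had 6293, 7235 and 6850 CPM at 18 months, against 9075, 8253 and 9449 CPM at 6 months (-0.39 ± 0.12, edgeR adjusted p = 0.425). COX1, of complex IV, overlapped, with 14764, 16728 and 16433 CPM at 18 months, against 17722, 16377 and 19423 CPM at 6 months (-0.16 ± 0.13, edgeR adjusted p = 0.84).

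The list summed to 36820 to 41660 CPM at 18 months and 45960 to 52180 CPM at 6 months, and 12 of 13 members were negative without libraries 14 and 34 too, with a median of -0.30. The 9 members lower at an unadjusted p below 0.05 became 5 without library 14, 5 without library 34 and 3 without both. Nuclear genes of the respiratory chain had 12 of 70 members positive and a median of -0.06, with 2 lower and none higher at an unadjusted p below 0.05. Mitochondrial ribosomal protein genes had 10 of 44 positive and a median of -0.03. Without library 14 the positive members numbered 25 of 70 and 24 of 44. The difference between these lists and the mitochondrially encoded genes was not tested.

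Genes of synaptic vesicles and the active zone, which release transmitter, were lower in most members. Of 30 tested members 6 were positive, 13 were lower and none higher at an unadjusted p below 0.05, and 9 were lower with no overlap (30%), with a median of -0.18 and no call by edgeR or DESeq2. Slc32a1, the vesicular transporter of GABA and glycine, had 158, 183 and 204 CPM at 18 months, against 358, 248 and 209 CPM at 6 months (-0.58 ± 0.21, edgeR adjusted p = 0.558). Syp, synaptophysin, had 1121, 1344 and 1248 CPM at 18 months, against 1363, 1424 and 1436 CPM at 6 months (-0.19 ± 0.07, edgeR adjusted p = 0.564). The lowest 6-month library in Slc32a1 was close to the highest 18-month library, and the highest was library 32, which also held the most striatal markers.

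Syt2, a calcium sensor of fast synapses, had 27.5, 41.0 and 34.98 CPM at 18 months, against 49.4, 41.5 and 98.7 CPM at 6 months (-0.87 ± 0.29, edgeR adjusted p = 0.494), and was highest in library 34. Without libraries 14 and 34 the list had 11 positive members, 3 lower and none higher at an unadjusted p below 0.05, and a median of -0.06. Among potassium, sodium and calcium channels 15 of 35 members were positive, and 7 were lower and 1 higher at that p, with a median of -0.09. The 7 became 3 without library 14, 2 without library 34 and 1 without both. Hcn2, the pacemaker channel, had 153, 196 and 196 CPM at 18 months, against 233, 200 and 305 CPM at 6 months (-0.44 ± 0.15, edgeR adjusted p = 0.485). Like Syt2 it was highest in library 34, and the part of the midbrain and hindbrain tissue in these values was not tested.

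Myelin genes were lower in 23 of 24 members, 7 of them at an unadjusted p below 0.05 and none higher, with a median of -0.26, but only 1 did not overlap. Mog, a glycoprotein of the outer myelin surface, had 76.8, 91.5 and 94.6 CPM at 18 months, against 120, 92.5 and 122 CPM at 6 months (-0.34 ± 0.13, edgeR adjusted p = 0.564). Mbp, myelin basic protein, had 3693, 4875 and 4232 CPM at 18 months, against 6011, 4168 and 6182 CPM at 6 months (-0.35 ± 0.19, edgeR adjusted p = 0.675). Library 33 lay inside the 18-month range in both genes. The 7 members lower at an unadjusted p below 0.05 became 0 without library 14, 1 without library 34 and 0 without both, where the median was -0.11.

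The neuropeptides of the hypothalamus leaned to higher values at 18 months: 26 of 33 tested members were positive, 7 were higher and none lower at an unadjusted p below 0.05, and 8 were higher with no overlap (24.2%), with a median of 0.33. No member was called by edgeR or DESeq2. Avp, vasopressin, had 728, 321 and 361 CPM at 18 months, against 263, 166 and 137 CPM at 6 months (1.32 ± 0.54, edgeR adjusted p = 0.573). Oxt, oxytocin, had 230, 138 and 140 CPM at 18 months, against 70.1, 132 and 83.7 CPM at 6 months (0.83 ± 0.44, edgeR adjusted p = 0.677). Both had no overlap and were highest in library 14.

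Other peptides did not overlap between the ages either. Vip, a peptide of the suprachiasmatic clock, had 15.9, 5.93 and 7.14 CPM at 18 months, against 4.28, 4.77 and 4.68 CPM at 6 months (1.08 ± 0.37, edgeR adjusted p = 0.505). Qrfp, of the lateral hypothalamus, had 3.30, 1.71 and 2.00 CPM at 18 months, against 0.9001, 1.35 and 0.720 CPM at 6 months (1.24 ± 0.36, edgeR adjusted p = 0.403). Trh, thyrotropin-releasing hormone, had 71.6, 64.6 and 65.5 CPM at 18 months, against 36.2, 57.9 and 42.5 CPM at 6 months (0.56 ± 0.29, edgeR adjusted p = 0.67). The number of members higher at an unadjusted p below 0.05 was 2 without library 14 and 1 without libraries 14 and 34, with medians of 0.20 and 0.18.

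Peptides of feeding and growth overlapped between the ages. Agrp, which drives feeding, had 6.27, 1.86 and 2.77 CPM at 18 months, against 2.95, 2.01 and 1.57 CPM at 6 months (0.73 ± 0.34, edgeR adjusted p = 0.621). Its partner Npy had 22.9, 13.9 and 15.2 CPM at 18 months, against 21.4, 12.2 and 9.65 CPM at 6 months (0.25 ± 0.31, edgeR adjusted p = 0.904). Both were highest in library 14, and without libraries 14 and 34 the sign turned, to -0.09 for Agrp and -0.21 for Npy. Pomc, the precursor of the satiety signal alpha-MSH, had 47.5, 32 and 30.8 CPM at 18 months, against 32.5, 22.9 and 21.1 CPM at 6 months (0.52 ± 0.39, edgeR adjusted p = 0.814), and Ghrh, growth hormone-releasing hormone, had 3.95, 2.37 and 2.83 CPM at 18 months, against 1.85, 2.76 and 1.67 CPM at 6 months (0.54 ± 0.33, edgeR adjusted p = 0.732).

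Hcrt, orexin of the lateral hypothalamus, showed how far a single library can differ: it had 8.69, 87.2 and 92.3 CPM at 18 months, against 82.2, 86.2 and 70.3 CPM at 6 months (-0.34 ± 0.53, edgeR adjusted p = 0.925). Without library 14 its fold change was 0.18 on the log2 scale. Pmch, the melanin-concentrating hormone of the same area, was also lowest in library 14, with 17.9, 47.6 and 40.8 CPM at 18 months, against 32.1, 32.7 and 19.7 CPM at 6 months (0.33 ± 0.34, edgeR adjusted p = 0.879). Library 14 was thus the lowest 18-month library in Hcrt and Pmch, but the highest in Qrfp, which belongs to the same area.

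Of the peptides of the reproductive axis, Tac2, neurokinin B, had 38.8, 35.9 and 29.7 CPM at 18 months, against 19.4, 28.7 and 14.8 CPM at 6 months (0.73 ± 0.25, edgeR adjusted p = 0.494), with no overlap. Kiss1 averaged 1.13 ± 0.439 CPM at 18 months and 0.623 ± 0.229 CPM at 6 months (SD, n = 3 each, edgeR adjusted p = 0.721), Gnrh1 2.63 ± 1.89 CPM and 2.04 ± 1.29 CPM (0.93), Crh 5.81 ± 0.878 CPM and 5.37 ± 1.07 CPM (0.963), and Sst 114 ± 12.0 CPM and 118 ± 31.9 CPM (0.975). Kiss1, Gnrh1, Crh and Sst overlapped between the ages. In the same panel the cell cycle inhibitor Cdkn1a, a marker of senescence, averaged 8.11 ± 1.63 CPM at 18 months and 8.70 ± 1.64 CPM at 6 months (edgeR adjusted p = 0.943), and the alarmin Il33 averaged 101 ± 14.5 CPM and 107 ± 11.1 CPM (0.938). Cdkn2a, the other common senescence marker, did not pass the filter on low counts.

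Several pathways often studied in ageing had medians near 0 and no call. The 21 clock genes had a median of 0.01, 27 genes of insulin and IGF signalling -0.02, 18 genes of DNA methylation 0.05, 31 proteasome genes -0.03, 80 cytosolic ribosomal protein genes 0.01 and 16 genes of sirtuins and NAD metabolism -0.02. Of these lists only the ribosomal proteins, with 1 lower, and the sirtuin list, with 1 higher, had any member at an unadjusted p below 0.05.

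Several lists of markers for tissue around the hypothalamus moved with single libraries. Choroid plexus markers were positive in 16 of 16 members (median 1.73). They stayed so without library 14 (median 1.08) or library 34 (1.34), and 15 of 16 were positive without both (0.68). Without library 32 the median was 3.20. Ttr, transthyretin, had 3036, 930 and 870 CPM at 18 months, against 930, 33.7 and 11.03 CPM at 6 months (2.31 ± 2.13, edgeR adjusted p = 0.866). Kl, klotho, had 80.5, 27.9 and 32 CPM at 18 months, against 31.1, 4.54 and 6.22 CPM at 6 months (1.72 ± 0.90, edgeR adjusted p = 0.674). In both, library 32 lay among the 18-month libraries and the other 6-month libraries far below. Ependymal markers were positive in 18 of 18 members with a median of 0.56, and in 8 of 18 with a median of -0.08 without libraries 14 and 34. Midbrain and hindbrain markers had 21 of 24 members negative with a median of -1.01, against -0.09 without library 34. Pituitary markers kept their sign: 9 of 10 members were positive, with a median of 1.04 and none called. The median ran from 0.69 to 1.85 over single libraries left out and was 0.96 without libraries 14 and 34. Their summed CPM did not overlap between the ages, although only 1 member had no overlap (10%). Whether handling had a part in this was not tested.

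To see the same genes in libraries that did not choose them, 24 months was compared with 2 months (2 and 3 libraries), which share none with the comparison above. All 3 called genes were also called there: Itgax (3.45 ± 0.41 on the log2 scale, edgeR adjusted p = 2.15e-05), Cst7 (2.62 ± 0.48, 0.00118) and Serpina3n (1.34 ± 0.15, 1.1e-05). That comparison called 1932 of 16916 genes (11.4%; 5.5% higher and 5.92% lower), and its 2-month libraries held little Avp (11.1 to 56.9 CPM) and Oxt (3.41 to 22.3 CPM). Midbrain and hindbrain markers had a median of -1.68 at 24 against 2 months, with 6 of 24 called lower and 1 higher. Meningeal markers had -1.73 with 4 of 17 called lower, and hypothalamic transcription factors 1.13 with 13 of 29 called higher and 1 lower. Midbrain, hindbrain and meningeal markers also peaked in a 6-month library, as described above. The part of these differences in the comparison was not tested. Of the 11 genes that DESeq2 called higher at 18 months, 11 were positive and 10 called by edgeR at 24 against 2 months, and of the 7 called lower, 7 were negative and 5 called.

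The genes at an unadjusted p below 0.05 gave the same picture in number. Of 624 that were higher at 18 months, 87.3% were positive at 24 against 2 months, against 48.8% of all genes, and of 691 that were lower, 89.3% were negative, against 51.2% of all genes. The part of the tissue marker differences in these shares was not tested. At 24 against 12 months, which also shares no library, the shares were 53% (48.2% of all genes) and 60.8% (51.8%), and 1 gene was called (0.00591%). There Itgax had 1.43 ± 0.35, Cst7 0.91 ± 0.42 and Serpina3n 0.18 ± 0.15 on the log2 scale, none of them called.

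**Figure D5:**
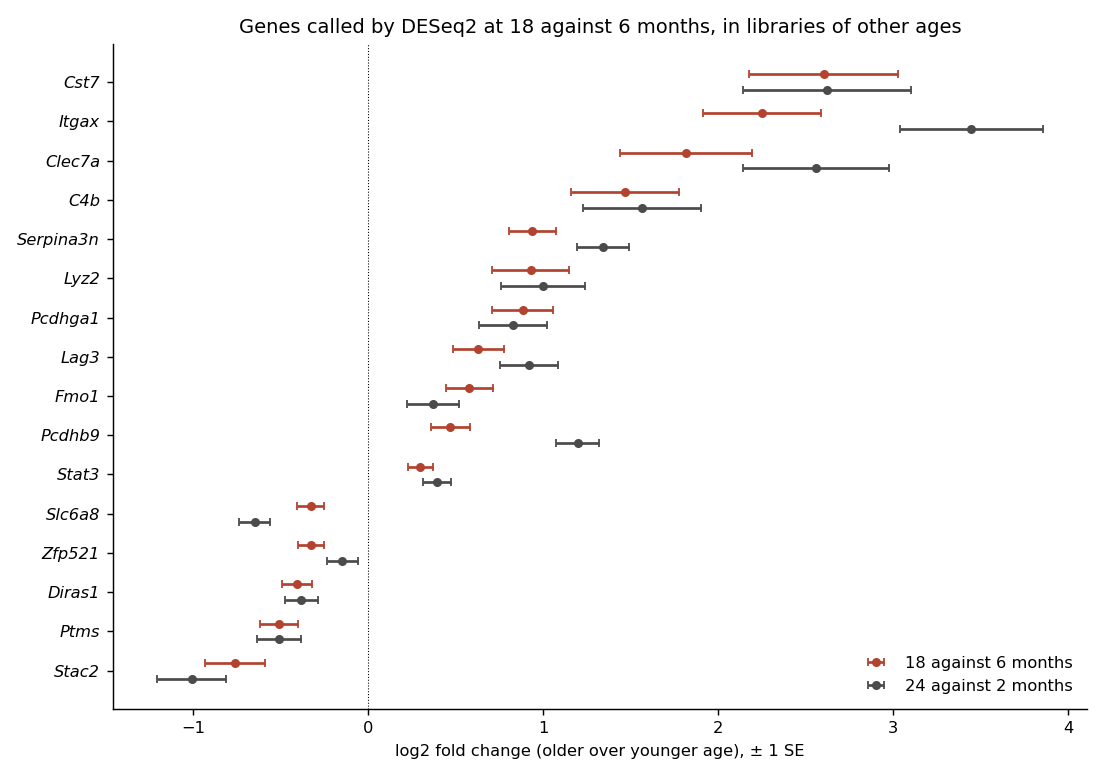
Log2 fold change with 1 SE of 16 of the genes that DESeq2 called at 18 against 6 months, in that comparison (red) and at 24 against 2 months (dark grey), which uses other libraries; both values are from edgeR. Each of the genes drawn keeps its sign, and Itgax reaches 3.45 at 24 against 2 months, while Tph2 is left out because its value came from 1 library.

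The lists in the same 2 comparisons gave these values. For reference, 5.5% of all genes were called higher and 5.92% lower at 24 against 2 months. Genes of the disease-associated microglial state had a median of 0.33 at 24 against 2 months, and of 24 members 5 were called higher and 4 lower. Their median was 0.11 at 24 against 12 months with none called. Reactive astrocyte genes had 0.17 with 6 of 22 called higher, and -0.05. Interferon response genes had a median of 0.45 at 24 against 2 months with only 3 of 33 called higher, and 0.26 at 24 against 12 months with none called. MHC class I genes had 0.52 with 8 of 16 called higher, and 0.17. Complement genes had 0.40 with 7 of 20 called higher, and 0.08. Mitochondrially encoded genes had -0.58 with 7 of 13 called lower, and -0.10. Myelin genes had -1.01 with 21 of 24 called lower, and -0.16. Neuropeptides had 1.09 with 12 of 33 called higher and 1 lower, and 0.03. Choroid plexus markers had -1.4986 and -3.19, the opposite sign to 18 against 6 months.

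The step from 6 to 12 months and from 12 to 18 months shares libraries with the main comparison, so the values only place the 12-month level. Neither step had a gene called by edgeR (0% each), with 1548 (9.15%) and 410 (2.42%) genes at an unadjusted p below 0.05. For Serpina3n the log2 fold change was 0.70 at 12 against 6 months and 0.24 at 18 against 12 months, for C4b 0.89 and 0.58, and for Diras1 -0.36 and -0.05. For Itgax it was 0.74 and 1.51, for Cst7 1.43 and 1.17, and for Lag3 0.06 and 0.57.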

How the data were processed

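RNA of whole hypothalamus was sequenced in read pairs. The authors deposited raw read counts per gene symbol for each library, made with HISAT2 2.1.0 and HTSeq 0.9.1 on mm10 (GRCm38), per the submitters' processing notes; which annotation and which strand setting they used is not given in the sources used here. The 5 summary lines, 28.22 to 31.68% of each library's total among the 6 libraries, were left out. Positions come from GENCODE M21, promoters from RefSeq.

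Counts of 24499 symbols were fitted in R 4.3.3 with edgeR 4.0.16: genes passing its filter on low counts (16916), TMM scaling, 1 quasi-likelihood model with a term for each age, contrasts between ages, Benjamini-Hochberg adjustment over all genes tested, and a call at an adjusted p below 0.05. The model used 28 libraries, so all ages share the estimate of spread; 24-month replicate 5 was dropped for its depth of 2377580 counts. CPM are relative to TMM-scaled library sizes. The scripts were tested on simulated data.

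Genes are named by rule: up to 8 per direction, called genes before others by smallest p that did not overlap and averaged at least 5 CPM; in each list up to 3 called members, or the member of smallest p; and a fixed panel. Also, some list members were named after their values were seen, and a few genes that the rule or the lists hold are not reported here by name, although counts include them. The members and the gene lists were chosen with earlier results of these data known. The alternatives were RLE scaling, DESeq2 1.42.0, other filters, fewer or all libraries, a slope over age, and each of the 6 libraries left out in turn.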

Additional observations from a re-analysis of the deposited data

How the results depend on the processing

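No paired analysis was possible because the replicate numbers of the 2 ages do not overlap. Of 3 genes called, DESeq2 gave 18 (11 higher, 7 lower), a fit of the 18-month and 6-month libraries alone 0, a fit of 6, 12 and 18 months 1, a slope over these ages 0, and a fit of all 29 libraries 0. Leaving out each library in turn gave 0 to 6 genes called, 0 to 4 higher and 0 to 2 lower. The lowest count, 0, came without 6-month replicate 34, and the highest, 6, without 18-month replicate 15. Without 18-month replicate 14 and 6-month replicate 34, chosen after seeing the data, 1 gene was called and it was higher. The fit of all 29 libraries had 85 genes at an unadjusted p below 0.05, against 1315 as reported. RLE scaling and no filter on low counts each gave 3, and a mean of at least 1 CPM gave 2. Fold changes of Serpina3n ran from 0.84 to 1.01 and of Itgax from 1.98 to 2.55 on the log2 scale over all 15 alternatives, and of Cst7 from 2.36 to 2.80 over 14, since it does not pass the filter of 1 CPM.

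Signs turned for 9 genes with no call when libraries were left out. Their lowest and highest log2 fold changes, over each of the 6 libraries left out and both replicates 14 and 34 left out, were -0.093 and 1.04 for Agrp, -0.40 and 0.046 for Cdkn1a, -0.027 and 0.26 for Crh, -0.022 and 0.48 for Gfap, -0.80 and 0.87 for Gnrh1, -0.73 and 0.18 for Hcrt, -0.19 and 0.065 for Il33, -0.21 and 0.66 for Npy, and -0.30 and 0.17 for Sst. The cause was not tested. Depth limits Itgax and Cst7, which rest on 5 to 89 counts per library.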

Other observations

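Clustered protocadherins, adhesion molecules that give neurons a surface identity, were looked at after Pcdhga1 and Pcdhb9 were seen. Of 55 tested members 48 had a positive fold change at 18 against 6 months, with a median of 0.15 on the log2 scale, 16 higher and none lower at an unadjusted p below 0.05, and none called by edgeR, while DESeq2 called Pcdhga1 and Pcdhb9. The Pcdhb genes were positive in 22 of 22 members, with a median of 0.25, and 11 had every 18-month library above every 6-month library (50%, against 6.41% of all genes). Pcdha genes were positive in 11 of 11 members and Pcdhg genes in 15 of 22. At 24 against 2 months, in other libraries, 50 of the 55 were positive and 27 were called higher and none lower. The genes are near-identical and partly overlap, so reads may be shared between them.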
